A study of Mus musculus with 6 samples.

Results

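Genes of mitochondrial respiration and of mitochondrial protein synthesis were followed in the ovary of newborn mice. They were chosen by name only. A probe counted when its deposited annotation held "NADH dehydrogenase", "succinate dehydrogenase", "ubiquinol", "cytochrome c", "ATP synthase", "mitochondrial ribosomal protein" or "mitochondrial membrane", and the brightest probe stood for each name. This gave 50 names on 59 probes, out of 4707 names and 8272 probes on the array. The rule reads names and brightness, not changes, but it was set with earlier results of these data known. Of the 50 names, 21 are subunits or assembly factors of the respiratory chain and ATP synthase, 19 are proteins of the mitochondrial ribosome, 9 are proteins of the mitochondrial membranes, mostly protein import, and 1 is an uncharacterised clone that matches only through the words "Cytochrome c family" in its name. A gene symbol could be given to 48 names. The exceptions are this clone and a name listed as translocator a of the inner membrane.

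The respiratory chain sits in the inner mitochondrial membrane. Complex I and complex II take electrons from NADH and succinate, complex III hands them to cytochrome c, complex IV passes them to oxygen, and ATP synthase uses the proton gradient that results to make ATP. A few of these subunits are encoded in mitochondrial DNA and are made on the mitochondrion's own ribosome, whereas the genes described here are nuclear, and their proteins are brought in through the translocases of the outer and inner membranes. Oocytes store large numbers of mitochondria as they grow, and the surrounding granulosa cells supply them with fuel.

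Whole ovaries of C57Bl/6J mouse pups were compared at day 4 and at day 2 after birth with ovaries on the day of birth (day 0, less than a day old). The study places the assembly of follicles at day 2 and the start of their growth soon after, and the study asked which messages differ over that time. Each of the 6 arrays, printed with cDNA clones of the NIA 15K mouse set, held RNA of 1 later ovary sample labelled with Cy5 and of 1 day 0 sample labelled with Cy3, so that a positive log2 ratio means more RNA at the later age. There were 3 arrays per age, each with a later RNA of its own, and 5 day 0 RNAs, since array 3 of both ages used the same one. The dyes were never swapped, so an effect of the dye on a gene and a difference from day 0 cannot be told apart. How many pups gave each RNA is not stated in the sources used here. The RNA is that of the whole organ, so that fewer cells of a type and less RNA per cell cannot be told apart either.

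All 50 names were measured on 2 or more arrays at both ages and were tested, and 34 had a value on all 3 day 4 arrays. The number of values for these names was 47, 50 and 37 on day 4 arrays 1, 2 and 3, and 50 on each day 2 array. Day 4 array 3 had a value for 5630 probes in all, against 7775 and 8272 on the other day 4 arrays and 8272 on each day 2 array. Over these names, the median SD of the 4 repeats of a probe within an array was lowest on day 2 array 1, at 0.121. It was highest on day 4 array 3, at 0.184, both on the log2 scale. Day 2 arrays 1 and 2 stood against each other across all 8272 probes (r = −0.68), although their headers state the same dyes and the same ages. The direction of every day 2 value is therefore not settled, and the counts, medians and named means that use day 2 are repeated after turning the sign of array 1 or of array 2. Of the markers of oocytes, the cells that define the ovary, the array carried 9 of 18, and their median log2 ratio was 2.87 at day 4. Nlrp14, an oocyte protein that the embryo inherits, was at 3.92, 4.55 and 2.46 on the 3 day 4 arrays. H1f8, which codes for an oocyte linker histone, was at 2.24, 2.61 and 2.33. All 3 values of each gene lie far above 0, and both genes passed the test at day 4 (limma, adjusted p = 0.033 and 0.0086). On day 2 arrays 1, 2 and 3, as deposited, Nlrp14 was at 2.11, 2.06 and 1.18 and H1f8 at 0.60, 0.88 and 0.67. The medians of the 9 oocyte markers on these arrays were −0.03, 0.88 and 0.70, with 5, 1 and 0 markers below 0. The cause of the opposition between day 2 arrays 1 and 2 was not tested.

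Nuclear genes of respiration have long been studied for 2 kinds of sites in their promoters, those of the factor NRF1 and those of ETS factors such as GABP. The promoter windows, from 250 bases before to 50 bases after the start of the gene, came from RefSeq (build GRCm38.p6) and were at hand for 41 of the 48 genes. They were searched on both strands for GCGCATGC, a core of the NRF1 site, and for CCGGAAG, a core of ETS sites. The cores can overlap in no more than 1 letter at an end. The NRF1 core stood in the windows of 7 of 41 genes (17.1%), against 3.05% of 27025 genes in the table and 3.94% of its 17492 protein-coding genes. The ETS core stood in 12 of 41 (29.3%), against 9.93% of all genes and 12.9% of protein-coding genes. Either core stood in 17 of 41 (41.5%), against 12.4% and 16%. Both occurred together in 2 genes, Sdhb, the iron-sulfur subunit of complex II, and Atp5l, subunit g of ATP synthase. These 2 windows are shown with that of Cycs, the soluble electron carrier cytochrome c, which holds the NRF1 core alone, and that of Ndufaf1, an assembly factor of complex I, which holds the ETS core alone and had one of the smallest p-values at day 4. Capitals mark the cores on either strand, and each window is written 5′ to 3′ along its gene. Sdhb is at chr4:140961021-140961320 on the + strand, Atp5l at chr9:44920693-44920992 on the − strand, Cycs at chr6:50566520-50566819 on the − strand and Ndufaf1 at chr2:119662785-119663084 on the − strand.
Sdhb: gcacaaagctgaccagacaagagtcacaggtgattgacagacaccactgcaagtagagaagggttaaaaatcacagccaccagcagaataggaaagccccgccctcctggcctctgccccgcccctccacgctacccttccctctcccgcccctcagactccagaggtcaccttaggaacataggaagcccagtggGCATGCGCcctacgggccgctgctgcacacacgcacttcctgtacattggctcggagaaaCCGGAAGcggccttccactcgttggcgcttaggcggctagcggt
Atp5l: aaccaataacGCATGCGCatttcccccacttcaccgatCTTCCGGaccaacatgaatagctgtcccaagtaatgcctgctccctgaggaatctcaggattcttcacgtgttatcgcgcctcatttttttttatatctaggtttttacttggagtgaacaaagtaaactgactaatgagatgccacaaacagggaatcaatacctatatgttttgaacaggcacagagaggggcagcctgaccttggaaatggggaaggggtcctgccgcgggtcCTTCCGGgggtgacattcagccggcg
Cycs: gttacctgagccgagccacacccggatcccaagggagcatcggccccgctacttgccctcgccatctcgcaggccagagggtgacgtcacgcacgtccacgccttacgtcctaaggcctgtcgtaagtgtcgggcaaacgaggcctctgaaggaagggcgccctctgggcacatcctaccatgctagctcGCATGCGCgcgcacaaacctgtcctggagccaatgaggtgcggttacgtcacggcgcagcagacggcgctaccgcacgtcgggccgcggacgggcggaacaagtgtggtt
Ndufaf1: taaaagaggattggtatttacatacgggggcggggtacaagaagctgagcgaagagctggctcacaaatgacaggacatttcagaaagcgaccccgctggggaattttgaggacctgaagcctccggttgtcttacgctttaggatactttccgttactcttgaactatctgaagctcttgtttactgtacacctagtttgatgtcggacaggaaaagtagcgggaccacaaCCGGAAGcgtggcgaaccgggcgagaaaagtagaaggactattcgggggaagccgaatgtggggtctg
A match of letters is not a measured binding site. The genes with either core had a median log2 ratio of −0.15 at day 4 (11 below 0 and 6 above), and those with neither had −0.18 (17 below and 7 above), so that the ranges of both lie over each other.

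At day 4 the mitochondrial genes lay slightly below day 0 in their median, and no single gene passed the test. The median log2 ratio of day 4 over day 0 was −0.16, with 35 of 50 names below 0 and 15 above. Over all 8135 probes tested the median was 0.00 with 50.2% below 0, and over the brighter probes, those at or above the median intensity, it was −0.04 with 53.9% below 0. The genes described here are bright on the array: their median log2 intensity was 10.7, against 9.66 for all probes. By limma with Benjamini-Hochberg adjustment over all probes, 0 of 50 names had an adjusted p under 0.05, beside 39 of 8135 probes, or 0.479%, all of them higher at day 4. At an unadjusted p under 0.05, 3 of 50 names were lower, beside 4.29% of all probes, and 0 were higher, beside 5% of all probes, so that the share is near that of the array as a whole. The spread behind each SE, interval and p-value of this fit is shared by the arrays of both ages, so it is not that of the day 4 arrays alone. The 95% confidence interval of 27 of the 50 names lay wholly within a log2 change of 1 in either direction. Of the others, only the interval of Cox4i1 left out 0, and for the rest the interval held both 0 and a change of that size in at least 1 direction.

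**Figure D1:**
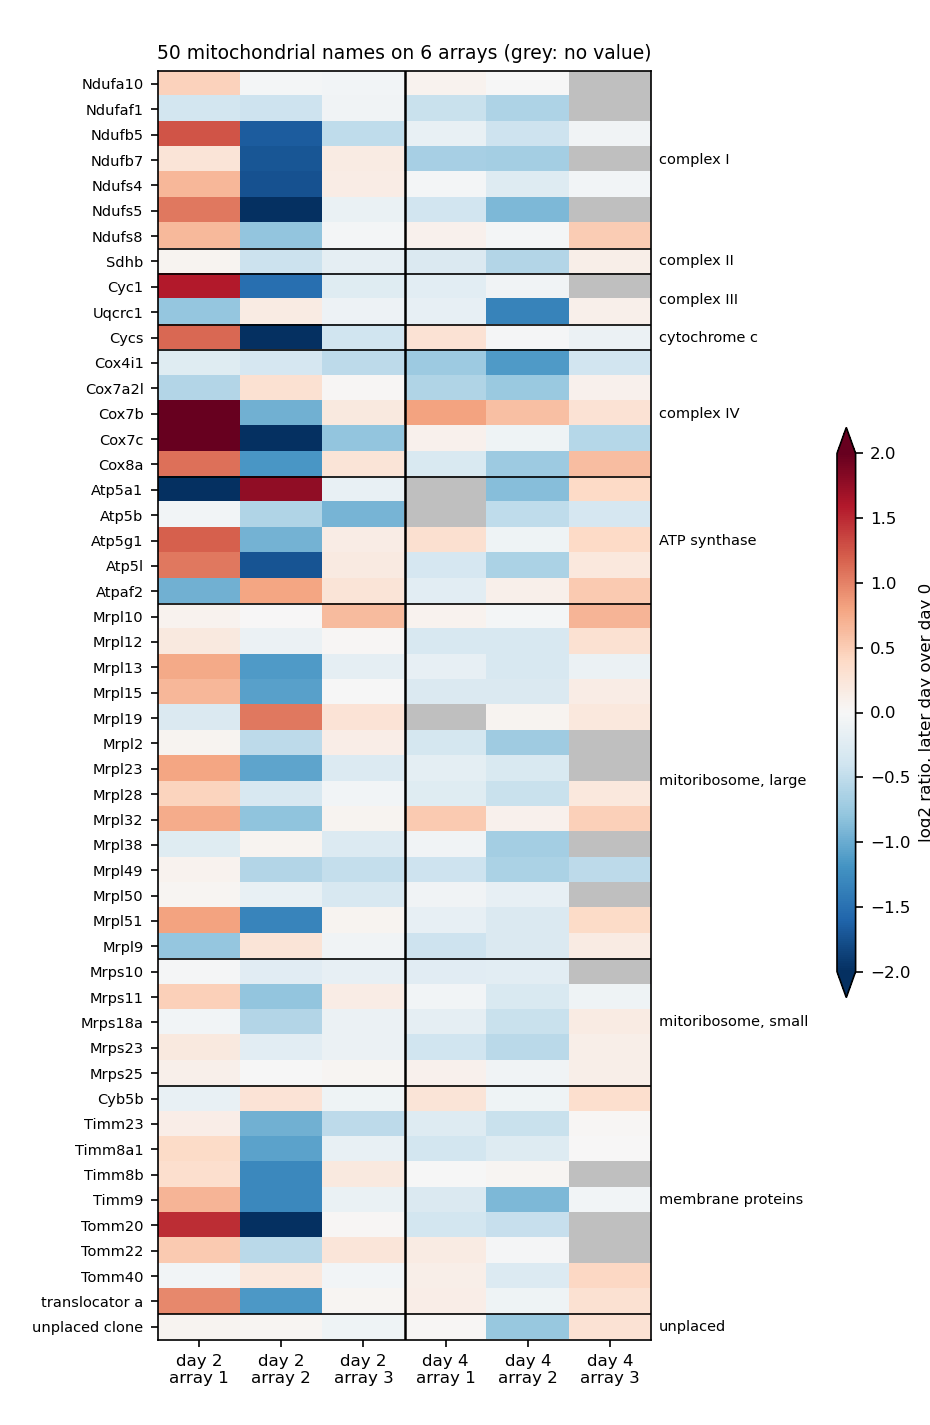
Log2 ratio of the later day over day 0 for the 50 names (rows, by role) on the 3 day 2 arrays and the 3 day 4 arrays (columns). The colour scale ends at 2 in either direction and grey marks no value. The first pair of columns shows opposite colours for most rows, and day 4 array 3 is mostly pale red where day 4 array 2 is blue.

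The 3 day 4 arrays did not place the set alike. On day 4 array 1, 33 of 47 names were below 0, with a median of −0.17. On day 4 array 2, 45 of 50 were below 0, with a median of −0.31. On day 4 array 3, only 10 of 37 were below 0, and the median was 0.16. The medians of all probes on these arrays were within 0.02 of 0. Without day 4 array 2 the median log2 ratio at day 4 was −0.03 over the 34 names that could still be tested, and without day 4 array 3 it was −0.28 over 47 names. Over the 34 names with all 3 values, 7 were lower on every array, beside 20.2% of the 5270 probes with all 3 values, and 2 were higher on every array, beside 24.1%. The 7 are Cox4i1, Mrpl13, Mrpl49, Mrps11, Ndufb5, Ndufs4 and Timm9, and the 2 are Cox7b and Mrpl32.

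**Figure D2:**
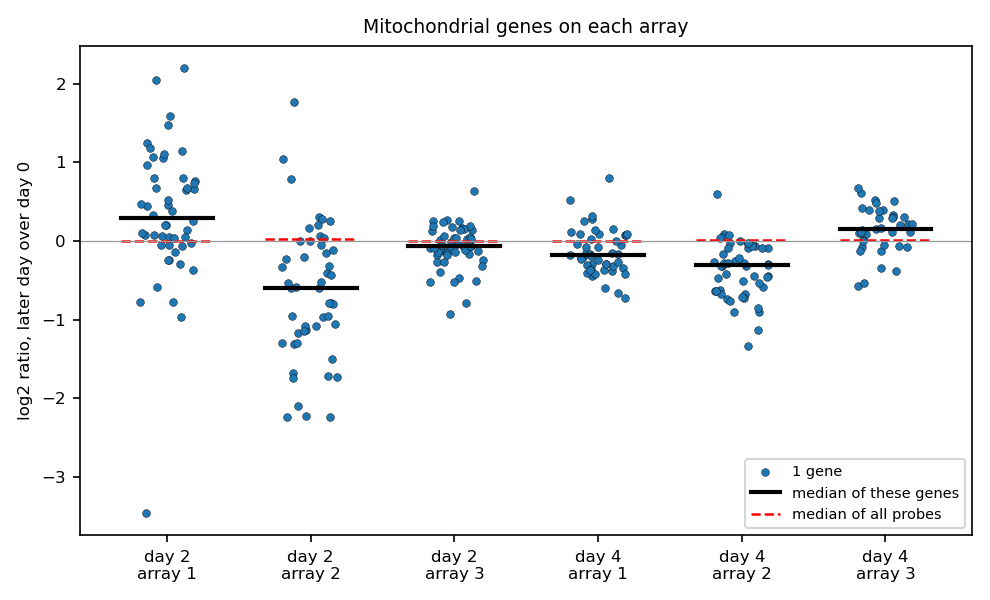
Log2 ratio of the later day over day 0 (vertical axis) for each name (points) on each of the 6 arrays, with the median of these names (black line) and of all probes (red dashes). The names lie widest on day 2 arrays 1 and 2, with medians of 0.30 and −0.59, and the day 4 medians are −0.17, −0.31 and 0.16.

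Among subunits of complex IV, the oxidase at the end of the chain, 4 of 5 names were below 0 at day 4, with a median of −0.19. Cox4i1, its regulatory subunit IV, had the smallest p-value of all 50 names. It was at −0.73, −1.13 and −0.38 on the 3 day 4 arrays and at −0.24, −0.33 and −0.52 on the 3 day 2 arrays. All 6 values are below 0 as deposited. Among the 34 names with all 6 values, 1 was below 0 on all 6, beside 182 of 5270 probes. The day 4 values of Cox4i1 overlap those of day 2. Its mean at day 4 was −0.74 ± 0.16 (SE of the fit, n = 3), which is 0.597 times the day 0 level, with a 95% interval from −1.14 to −0.35 and a limma adjusted p of 0.174, short of the threshold. Cox7b, a small subunit of the same complex, had the highest ratio of the set, at 0.80, 0.60 and 0.29 on the day 4 arrays, a mean of 0.56 ± 0.55 (SE, n = 3). Its 3 values lie above 0, but the SE takes in the day 2 arrays, where it was at 2.20, −0.96 and 0.19, and the adjusted p was 0.806. Cox7a2l, named for its likeness to subunit VIIa, was at −0.60, −0.74 and 0.09. Its dimmer probe was at −0.76, −0.73 and −0.13, below 0 on all 3 day 4 arrays (mean −0.54 ± 0.15, SE, n = 3, limma adjusted p = 0.311). Cox7c and Cox8a, further small subunits, had means of −0.19 ± 0.74 and −0.14 ± 0.45, each with day 4 arrays on both sides of 0.

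Of complex I, the entry point for NADH, 5 of 7 names were below 0 at day 4, with a median of −0.22. Ndufaf1, which helps to assemble the membrane arm of the complex, was at −0.44 and −0.62 on day 4 arrays 1 and 2 and had no value on array 3. Its mean was −0.53 ± 0.15 (SE, n = 2, adjusted p = 0.364). The largest shifts of the class in size, Ndufb7 at −0.67 ± 0.51 and Ndufs5 at −0.64 ± 0.76, also rest on those 2 arrays alone. Ndufs8, an iron-sulfur subunit in the path of the electrons, was at 0.09, −0.04 and 0.50, with no common direction. Ndufb5 and Ndufs4, a membrane subunit and a subunit needed for a complete complex, were below 0 on all 3 arrays at means of −0.22 ± 0.50 and −0.12 ± 0.43. Ndufa10 was at 0.07 and −0.01 on the 2 arrays that measured it.

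Complex II and complex III had 3 names, all with a mean below 0. Sdhb was at −0.29, −0.58 and 0.11 on the day 4 arrays, a mean of −0.25 ± 0.17 (SE, n = 3, limma adjusted p = 0.722). Uqcrc1, a core protein of complex III, was at −0.16, −1.33 and 0.10, so that most of its mean of −0.46 ± 0.31 comes from array 2. Its dimmer probe had a mean of −0.56. Cyc1, the cytochrome c1 that passes electrons on from complex III, was at −0.21 and −0.07, with no value on array 3. Cycs was at 0.28, −0.03 and −0.12, a mean of 0.04 ± 0.55 (SE, n = 3), with values on both sides of 0.

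ATP synthase had 3 of 5 names below 0 and a median of −0.23. Atp5b, the catalytic beta subunit, was at −0.51 and −0.34 on day 4 arrays 2 and 3, a mean of −0.42 ± 0.24 (SE, n = 2, limma adjusted p = 0.681). Atp5a1, the alpha subunit that stands beside it in the catalytic head, was at −0.86 and 0.39 on the same arrays, which oppose each other. Atp5g1, the subunit c of the rotating ring, was at 0.31, −0.09 and 0.40. Atpaf2, a chaperone for assembly of the head, was at −0.21, 0.10 and 0.52. Atp5l was at −0.34, −0.64 and 0.21, so that array 3 again stood on the other side of 0.

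**Figure D3:**
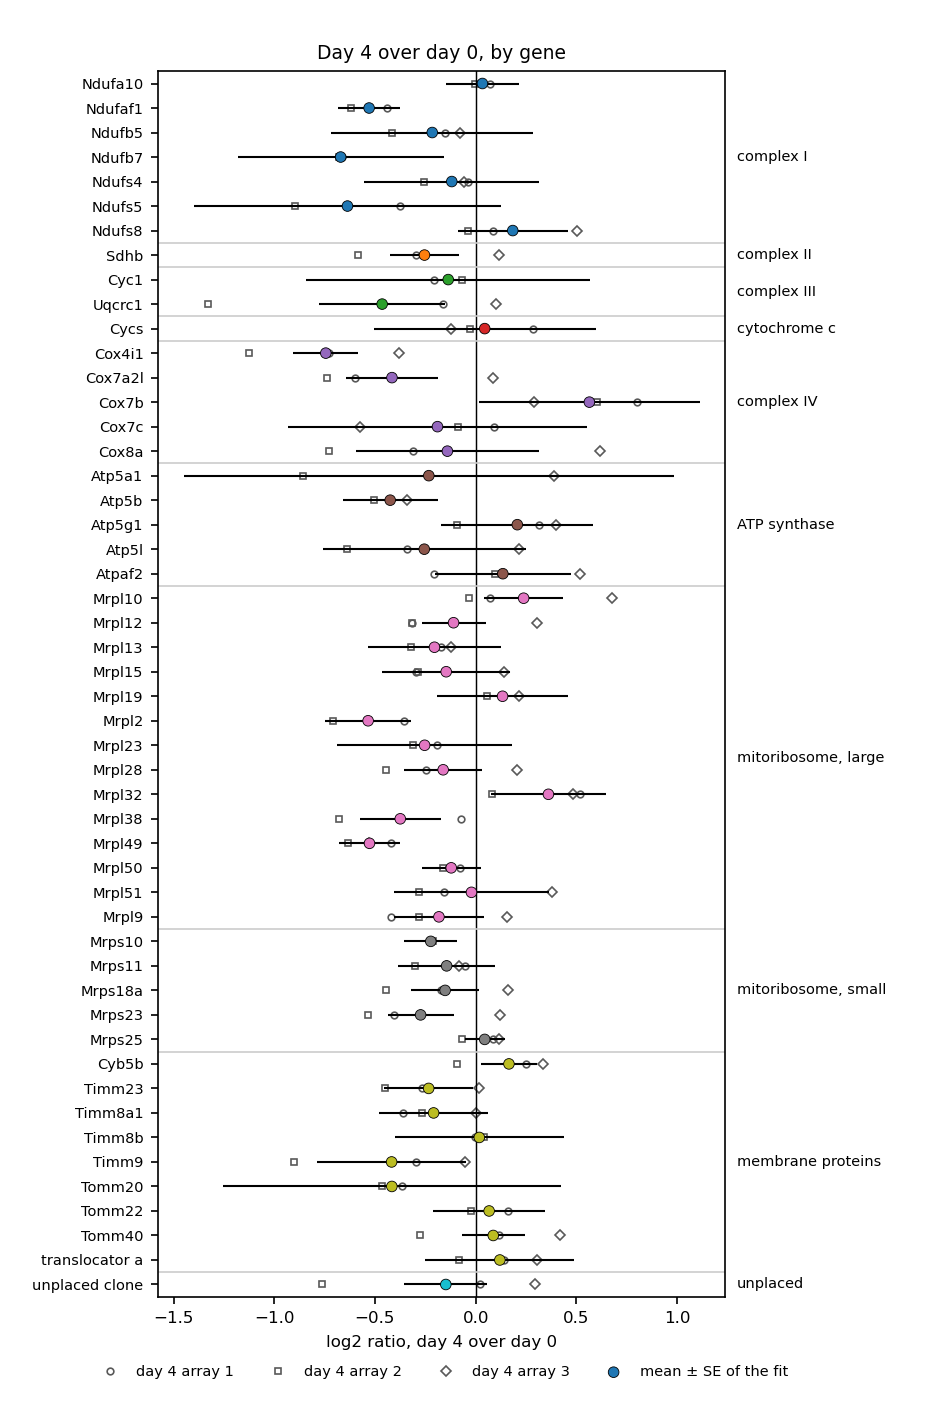
Log2 ratio of day 4 over day 0 for each name (rows, by role), with the value on each of the 3 day 4 arrays (open marks) and the mean ± SE of the fit (filled marks). No mean passed the test. Cox4i1 lies farthest left at −0.74 and Cox7b farthest right at 0.56, and most diamonds, day 4 array 3, lie to the right of the other marks.

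The 19 proteins of the mitochondrial ribosome had a median of −0.15 at day 4 with 15 below 0, and the 21 names of the chain and ATP synthase had −0.22, also with 15 below 0. Of 14 proteins of its large subunit, 11 were below 0 at day 4 with a median of −0.15, and of 5 of its small subunit 4 were, also with a median of −0.15. Mrpl49 was at −0.42, −0.64 and −0.53 on the 3 day 4 arrays, which lie close together and all below 0. Its mean was −0.53 ± 0.15 (SE, n = 3), or 0.694 times day 0, with an adjusted p of 0.322. Mrpl2, near the peptidyl transferase centre in the bacterial counterpart, was at −0.36 and −0.71 on arrays 1 and 2, a mean of −0.53 ± 0.21 (SE, n = 2, limma adjusted p = 0.557). Mrpl32 was at 0.52, 0.08 and 0.48, above 0 on all 3 arrays (0.36 ± 0.29, adjusted p = 0.772), and its protein is known as one that a mitochondrial protease must trim before the ribosome can form. Mrpl10 was at 0.07, −0.03 and 0.67, set by array 3. Mrpl19 had 0.05 and 0.21 on the 2 arrays that measured it, and Mrpl9 had −0.42, −0.28 and 0.16. In the small subunit, Mrps23 was at −0.41, −0.54 and 0.12, Mrps11 at −0.05, −0.30 and −0.08, and Mrps25 at 0.09, −0.07 and 0.12. None of these passed the test, and the highest and lowest means of the 19 ribosomal names were 0.36 and −0.53.

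The 9 membrane proteins had a median of 0.02 at day 4, with 4 below 0 and 5 above. Timm23, the channel of the inner membrane translocase, was at −0.27, −0.45 and 0.02 (mean −0.23 ± 0.22, SE, n = 3). Tomm20, a receptor on the outer membrane, was at −0.36 and −0.47 on arrays 1 and 2, but its dimmer probe had a mean of 0.07, so that its probes disagree. Timm9, a small chaperone between the membranes, was at −0.29, −0.90 and −0.05. Cyb5b, the cytochrome b5 of the outer membrane, was at 0.25, −0.09 and 0.33, and the name listed as translocator a was at 0.14, −0.08 and 0.30. Tomm22, Tomm40, Timm8a1 and Timm8b, further parts of the import path, had means from −0.21 to 0.09. The uncharacterised clone was at 0.02, −0.76 and 0.30.

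At day 2 the set could not be placed above or below day 0. The median log2 ratio of day 2 over day 0 was −0.15, with 37 of 50 names below 0 and 13 above. With the sign of day 2 array 1 turned, 40 were below 0 and the median was −0.37. With the sign of array 2 turned, 14 were below 0 and the median was 0.24. After scaling the arrays to 1 spread, 29 were below 0 and the median was −0.02. Of 50 names, 0 passed the test, beside 0% of all probes. At an unadjusted p under 0.05, 1 name was lower, beside 1.12% of all probes, and 0 were higher, beside 1.72%. These counts hang on the unsettled arrays. With array 1 turned, 23 of 50 names had such a p in either direction, beside 1884 of 8135 probes (23.2%). With array 2 turned it was 14 of 50, beside 1120 of 8135 (13.8%). Without array 1 it was 11 of 50, beside 1464 of 8135 (18%). In each case the share of the names was the larger, but the share of the brighter probes is not given here. None passed after adjustment. With no array turned or left out, the 1 name was Atp5b, at −0.05, −0.60 and −0.93 on the 3 day 2 arrays, a mean of −0.52 ± 0.19 (SE, n = 3, limma adjusted p = 0.966). With the sign of array 1 or of array 2 turned its mean was −0.49 or −0.13. Cox4i1 had a mean of −0.36 ± 0.16 and Ndufaf1 of −0.28 ± 0.12 at day 2 (SE, n = 3). With array 1 or array 2 turned, Cox4i1 was at −0.20 or −0.14 and Ndufaf1 at −0.04 or −0.01, so that these 2 means kept their sign. Of the names above 0, Mrpl19, at 0.34 ± 0.27, Mrpl10, at 0.24 ± 0.19, and Cox7b, at 0.48 ± 0.55, had the smallest p-values. With array 1 or array 2 turned, Mrpl19 was at 0.53 or −0.36, Mrpl10 at 0.19 or 0.24 and Cox7b at −0.99 or 1.12, so that only Mrpl10 of the 3 kept its sign both ways.

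Day 2 arrays 1 and 2 gave values of opposite sign for most of the set. On array 1, 36 of 50 names were above 0, with a median of 0.30, and on array 2, 39 of 50 were below 0, with a median of −0.59. The sign was opposite for 43 of 50 names, and the correlation across the names was r = −0.82 (rho = −0.85, n = 50 names, which share each array's RNA and are not independent). Cox7c was at 2.05 on array 1 and −2.24 on array 2, Tomm20 at 1.47 and −2.22, Ndufs5 at 1.06 and −2.23, Cycs at 1.14 and −2.09, and Cyc1 at 1.59 and −1.50. Atp5a1 went the other way, at −3.45 on array 1 and 1.77 on array 2, the widest gap of the set. On array 3 these 6 genes lay between −0.79 and 0.03. Cox4i1, Ndufaf1, Mrpl10 and the uncharacterised clone differed by less than 0.1 between arrays 1 and 2. The gap was over 1 for 29 of 50 names (58%), against 30.3% of all probes and 53.5% of those at or above the median intensity.

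By role, on day 2 arrays 1, 2 and 3 the chain and ATP synthase had medians of 0.65, −0.95 and −0.07, and the mitochondrial ribosome had 0.11, −0.32 and −0.05. All 7 names of complex I were below 0 on array 2 and 6 of 7 were above 0 on array 1. Cytosolic ribosomal proteins, with 31 names on the array, had medians of 0.34, −0.97 and −0.43 on the same arrays. Glycolysis genes had the opposite signs on arrays 1 and 2, with medians of −0.58, 0.47 and −0.33, as did 5 erythroid markers, with −0.24, 1.29 and −0.26. The part of these genes in the values of the set was not tested.

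**Figure D4:**
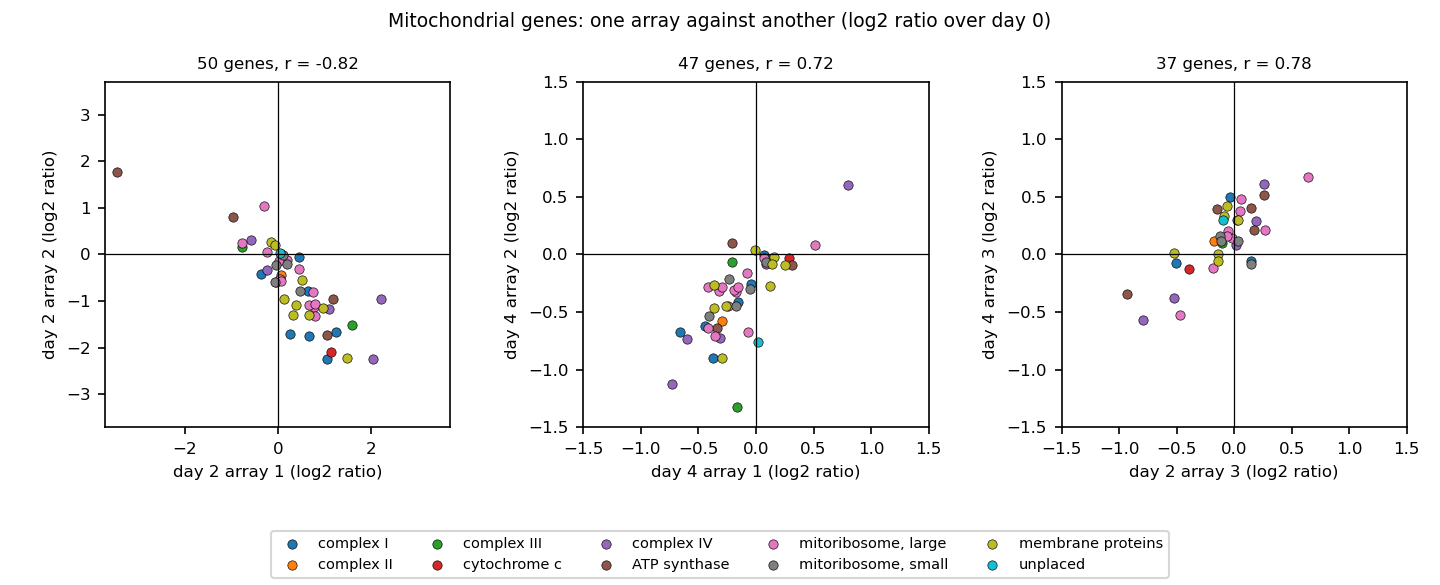
Log2 ratio of the later day over day 0 for each name (points, coloured by role) on one array against another: day 2 array 1 against array 2 (left, wider axes), day 4 array 1 against array 2 (middle) and array 3 of day 2 against array 3 of day 4, which share their day 0 RNA (right). The left panel slopes down (r = −0.82, 50 names), and the other panels slope up (r = 0.72, 47 names, and r = 0.78, 37 names).

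Other pairs of arrays ran together or had no clear relation. Day 4 arrays 1 and 2 correlated at r = 0.72 over 47 names. Array 3 of day 4 and array 3 of day 2 correlated at r = 0.78 over 37 names, and these arrays share their day 0 RNA. Day 4 array 3 correlated with day 4 arrays 1 and 2 at r = 0.34 (34 names) and r = 0.28 (37 names). Over all probes the same 4 pairs gave r = 0.75, 0.77, 0.51 and 0.44. All these values are descriptions across genes of shared samples.

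Day 4 against day 2, taken through day 0, gave no difference past the test. The median log2 difference of day 4 minus day 2 was −0.01, with 27 of 50 names below 0, and 0 names passed, beside 0% of all probes. With the sign of day 2 array 1 turned, 17 were below 0 and the median was 0.17. With that of array 2 turned, 43 were below 0 and the median was −0.47. After scaling the arrays to 1 spread, 39 were below 0 and the median was −0.18. At an unadjusted p under 0.05, 0 of 50 were lower, beside 0.676% of all probes, and 0 were higher, beside 1.97%. In either direction it was 8 of 50 with array 1 turned, beside 931 of 8135 probes (11.4%). It was 7 of 50 with array 2 turned, beside 721 of 8135 (8.86%), and 3 of 50 without array 1, beside 594 of 8135 (7.3%). Without day 2 array 2 it was 2 of 50, beside 445 of 8135, and without day 2 array 3 it was 0 of 50, beside 161 of 8135. None passed after adjustment. The smallest p-values below 0 belonged to Cox4i1, at −0.38 ± 0.23, Mrpl2, at −0.42 ± 0.28, and Ndufaf1, at −0.25 ± 0.20, and those above 0 to Mrpl32, at 0.36 ± 0.40, Cyb5b, at 0.15 ± 0.20, and Timm23, at 0.21 ± 0.31 (SE of the fit). With array 1 or array 2 turned, Cox4i1 was at −0.54 or −0.60, Mrpl2 at −0.39 or −0.77 and Ndufaf1 at −0.49 or −0.52. Mrpl32 was then at 0.86 or −0.17, Cyb5b at 0.05 or 0.33 and Timm23 at 0.30 or −0.42, so that of these 6 genes Mrpl32 and Timm23 changed sign.

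Genes of the same pathways that the names do not catch were read beside the set. The array holds 17 more genes of the chain, the mitochondrial ribosome and import, 16 under clone names and Mrps7 under a misspelt name, and their median at day 4 was −0.04, with 10 below 0 and 7 above, against −0.16 for the set. Among them, and picked after their values were seen, Mrpl42 was at −0.81 and −0.23 on day 4 arrays 1 and 2 (mean −0.52 ± 0.21, SE, n = 2), and Mrps27 at 0.28, 0.17 and 0.40 on the 3 arrays. They also stood opposite on day 2 arrays 1 and 2, with medians of 0.42 and −0.68 (r = −0.73, n = 17). Of the citric acid cycle and pyruvate entry, which feed the chain, 8 of 10 measured genes were below 0 at day 4 and 0 passed the test, with a median of −0.24. Idh3a, a subunit of the NAD-dependent isocitrate dehydrogenase, was at −0.52, −0.68 and −0.88 on the day 4 arrays (−0.69 ± 0.16, SE, n = 3, limma adjusted p = 0.200). Fh1, fumarate hydratase, was at −0.36, −0.41 and −0.29 (−0.36 ± 0.12). Both lay below 0 on all 3 arrays. Ogdh, of the 2-oxoglutarate dehydrogenase complex, was at 0.46, 0.43 and 0.49 (0.46 ± 0.23), above 0 on all 3. Of fatty acid oxidation 2 of 4 genes were below 0, with Hadhb at −0.55, −0.59 and −0.73. Of glycolysis 9 of 10 were below 0, with a median of −0.36, and of the 22 cytosolic ribosomal proteins that could be tested 18 were, with a median of −0.19. None of these lists had a gene past the test at day 4.

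Markers of other cell types were read on the same arrays. At day 4 all 9 measured oocyte markers were above 0, with medians of 2.78, 2.77 and 2.46 on the 3 arrays, and 4 passed the test. All 5 measured erythroid markers of 12 were below 0 in their mean, with a list median of −0.88 and medians of −1.28, −0.72 and −1.12 on the 3 arrays, and 0 passed. Of 3 pregranulosa and granulosa markers, 3 were above 0 with a median of 0.42, of 7 markers of smooth muscle and stroma 6 were above 0 with a median of 0.45, of 4 steroidogenic markers 3 were above 0 with a median of 0.32, and of 3 endothelial markers 2 were below 0 with a median of −0.44. Of 2 fat markers 2 were below 0, the 1 meiotic germ cell marker was at 0.01, and 0 of 6 leukocyte markers were on the array. The part of these cell types in the values of the mitochondrial genes was not tested.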

How the data were processed

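Ovary RNA was measured on 6 two-colour spotted cDNA arrays. The authors deposited 4 repeat log2 ratios per probe and array, their mean and a mean log2 intensity (brightness over both channels). Per the file headers, the log2 ratio is the later day (Cy5) over day 0 (Cy3). R 1.7.1 is in the submitters' processing notes, and for background correction and normalization of the ratios the method is not given in the sources used here. Spots also carry marks of 0 or 1, deposited with no definition, so marked values were kept and left out only as an alternative.

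The 4 repeats were averaged. limma 3.58.1 (R 4.3.3) fitted 1 mean per age over all 6 arrays (eBayes, two-sided) to the 8135 of 8272 probes measured on 2 or more arrays at both ages, and p-values were adjusted by Benjamini-Hochberg over these, and counted as passed under 0.05. A probe without a value on 1 array was fitted on the others, and such values carry their own n. The fit was tested on simulated ratios drawn independently for each array. They held no opposed arrays and no arrays that share an RNA, so the simulation does not cover these features. The 3 arrays of an age are labelled biological replicates, but how they relate to litters or animals is not stated. The SEs and p-values use 1 spread pooled over the arrays of both ages, so those at day 4 also hold the spread between day 2 arrays. Precision is limited by how few arrays there are.

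The members and lists were chosen with earlier results of these data known. Names given values were the 3 brightest of each role, any past the test, and the 3 with the smallest p-values in each direction and comparison, and further members were named after their values were seen. Genes named from other lists passed the test at day 4 or were among the 3 of their list with the smallest p-values there, and not all such genes are named. Cytosolic ribosomal proteins were names starting with "ribosomal protein", less 3 kinase names. Symbols and promoters came from RefSeq (GRCm38.p6).

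The alternatives were another centring or scaling, other filters, other model settings, leaving out arrays, a replicate block and turned signs of day 2 arrays. Proteins and mRNA sequences were not used here.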

Additional observations from a re-analysis of the deposited data

How the results depend on the processing

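None of the 50 mitochondrial names passed the test in any comparison under any alternative run, and the smallest adjusted p of any of them at day 4 over the alternatives ran from 0.0747 (day 4 arrays alone) to 0.667. Unadjusted p-values under 0.05 at day 4 numbered 1 to 10 of these names over the same alternatives. The 10 of 50 came with the day 4 arrays alone, beside 1788 of 8135 probes. It was 1 of 45 with the brighter probes only, beside 271 of 3999 probes, and 1 of 34 without day 4 array 2, beside 380 of 5270. The count of all probes past the test at day 4 against day 0, 39 as reported, was 96 after scaling the arrays to 1 spread, 126 with a robust fit and an intensity trend, 166 with the day 4 arrays alone, and 0 without array 3 of both ages or with the sign of day 2 array 2 turned, where 433 and 897 probes had an unadjusted p under 0.05. Leaving out 1 array moved it between 0 and 71: it was 0 without any 1 of the day 4 arrays (339 to 588 probes below 0.05 before adjustment), and it came to 71 without day 2 array 1, 57 without day 2 array 2 and 16 without day 2 array 3. With the robust fit and trend, 1 probe passed for day 4 against day 2. The median of the names ran from −0.28 to −0.03 at day 4, from −0.38 to 0.20 at day 2 and from −0.32 to 0.19 for day 4 against day 2 when 1 array was left out. Same-numbered arrays of both ages deviated from their means with r = 0.37, 0.05 and 0.51, and differently numbered ones with r from −0.42 to 0.09. The numbers were not taken as pairs. The pair at 0.51 is array 3 of both ages, which shares its day 0 RNA. The main fit treated these arrays as independent. With the replicate number as a block, over 5270 probes and 34 names, 56 probes passed at day 4, and 0 at day 2 and 0 for day 4 against day 2 (296 and 179 with an unadjusted p under 0.05). The medians of the names under the block were −0.15, −0.12 and 0.01, and the block changed no call of theirs. Signs were counted for the 29 names picked by brightness or p-value, the uncharacterised clone among them, and not for the further members named. For these 29, 4 of 71 values had the other sign at day 4 when a day 4 array was left out. It was 47 of 145 at day 2 when a day 2 array was left out or turned, and 52 of 216 for day 4 against day 2 under all of these. Scaling to 1 spread moved the median of the names to −0.22, −0.02 and −0.18 in these 3 comparisons. Chosen after seeing the data, day 2 without its arrays 1 and 2 gave a median of −0.06, and the 17 further genes under clone or misspelt names in place of the set gave −0.04, −0.09 and 0.03 at day 4, at day 2 and for day 4 against day 2. The causes of these differences were not tested.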

Other observations

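Other groups of mitochondrial genes were read at day 4 against day 0, with 0 genes past the test in each. Mitochondrial chaperones and proteases, which fold and trim imported proteins, had 6 of 7 genes below 0 and a median of −0.31. Carriers and outer membrane channels had 4 of 6 below 0 and a median of −0.12. Translation factors and tRNA synthetases had 5 of 7 below 0 and a median of −0.05. Genes of mitochondrial DNA upkeep and transcription had 3 of 5 above 0 and a median of 0.06. Among them Twnk, the helicase of mitochondrial DNA, was at 0.19, 0.39 and 1.01 on the day 4 arrays, and Nrf1, the factor whose site core was searched in the promoters, was at 0.19, 0.39 and 0.65. Both were above 0 on all 3 arrays, at 0.53 ± 0.25 and 0.41 ± 0.26 (SE, n = 3). Polg, the polymerase of mitochondrial DNA, was at −0.28 and −0.51 on day 4 arrays 1 and 2, both below 0, with a mean of −0.40 ± 0.19 (SE, n = 2). None of the 3 passed the test. Both mitochondrial antioxidant genes were below 0, with a median of −0.14. The 1 gene of fission and fusion was at −0.36, and the 1 further assembly factor of the chain at −0.13.

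For 9 names of the set a further, dimmer probe gave a second reading. Over 51 pairs of values on the same array, 38 had the same sign, and the median difference in size was 0.195 on the log2 scale. The brighter and dimmer probes of Uqcrc1 had the same sign on 6 of 6 arrays, and those of Cycs on 5 of 6. Those of Cox7a2l and Mrps25 had it on 3 of 6 each, and those of Tomm20 on 3 of 5. For Mrpl19 the brighter probe had a mean of 0.13 at day 4 and the dimmer one 0.55, with the same sign on 5 of 5 arrays.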
